A study of Drosophila melanogaster with 3 samples.

Results

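The genes described here encode the nuclear part of the mitochondrial respiratory chain of Drosophila melanogaster, scored for binding of Stwl (stonewall). They were chosen by symbol: protein-coding genes on the main chromosome arms whose Ensembl symbol starts with ND-, COX4 to COX8, UQCR-, ATPsyn or Sdh, which gave 88 of 13945 protein-coding genes. Stwl is a nuclear protein with a MADF domain, known for keeping germline stem cells in the ovary. Binding was measured by ChIP-seq, in which chromatin fragments held by a protein are precipitated and sequenced. Whole embryos aged 0 to 10 h came from a transgenic line in which Stwl carries GFP at its C-terminus, the precipitation was done through GFP, and chromatin had been sonicated to fragments of 200 to 800 bp. There is 1 group with 3 biological replicates, all from the tagged line, so no conditions were compared. Whole embryos mix many cell types, so a site bound in some cells and a site bound weakly in all cells cannot be told apart.

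The respiratory chain passes electrons from NADH (through complex I) and from succinate (through complex II) by way of ubiquinone and complex III to complex IV, which reduces oxygen. Complexes I, III and IV pump protons, and complex V, the ATP synthase, uses the gradient to make ATP. Most subunits are encoded in the nucleus and imported, and they are used in nearly every cell. Flies also carry duplicate copies of many of these genes, often marked by an L (for like) at the end of the symbol. Many of these duplicates are known in flies for expression mainly in the testis, a tissue that embryos of this age do not yet have in its adult form. Expression was not measured here.

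A gene was called bound if the summit of a peak in the authors' IDR list lay within 500 bp of one of its transcription start sites (TSSs). IDR, the irreproducible discovery rate, measures how far the order of peaks by strength is reproducible between replicates. The IDR list used here holds the strongest peaks of a list made from the pooled replicates. A bound call thus did not require a summit in every replicate. COX4L, COX8, ND-18 and ND-PDSW were bound although a replicate had no summit within 500 bp of them. Of the 88 genes, 61 (69.3%; 95% Wilson interval 59 to 78, which covers counting error only) were bound, against 42.1% of all protein-coding genes. The 24 duplicates with an L symbol and the other 64 members differed in this: 4 of 24 L paralogs (16.7%, 6.68 to 35.9) were bound, against 57 of 64 other members (89.1%, 79.1 to 94.6). With 1 group and peak lists only, no test was made of these shares.

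Among the members other than L paralogs, every complex was bound above the share of all genes. Complex I had 30 of 34 bound (88.2%), complex II 5 of 5, complex III 5 of 6 (83.3%), complex IV 8 of 8 and complex V 9 of 11 (81.8%). The Wilson interval of complex III, 43.6 to 97, starts close to the 42.1% of all genes. The Wilson intervals of the complexes overlap one another, so no order among them was resolved with these numbers of genes. L paralogs of complexes I and II had no bound gene in 6 and 3, and those of complexes III, IV and V had 1 of 3, 2 of 8 and 1 of 4.

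**Figure D1:**
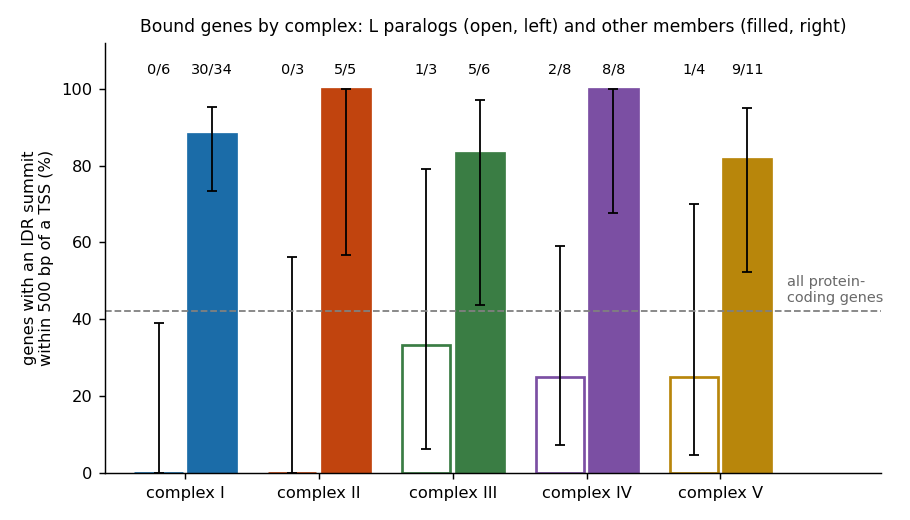
Share of genes called bound (vertical axis, percent) for each complex, with L paralogs as open bars on the left and other members as filled bars on the right; error bars are 95% Wilson intervals, counts of bound genes stand above the bars, and the dashed line is the share of all protein-coding genes, 42.1%. All filled bars lie above the line at 81.8% to 100%, and all open bars lie below it at 0 to 33.3%.

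The bound members were frequent but not unusually strong. Signal values are the authors' and are scaled separately in every list, so they are used here within the IDR list, and replicates are compared by rank. The median IDR signal of the 61 bound members was 507.2 (214.1 to 1535) and their median rank was 2754, against a median signal of 523.1 and a median rank of 2625 over all 5870 bound protein-coding genes. By complex, without L paralogs, the median signal of the bound members was 455.1 in complex I, 507 in complex II, 589.6 in complex III, 526.9 in complex IV and 622 in complex V. These medians all lie inside the quartiles of all bound genes, 357.7 and 744.2.

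Complex I, the NADH dehydrogenase, has the most members. Its strongest bound gene was ND-B22, an accessory subunit, with an IDR signal of 1320 and a summit 29 bp upstream of the TSS. ND-B22 ranked 292, 235 and 323 in replicates 1, 2 and 3, so it stood near the top of all 3 lists. ND-51, which carries the FMN that accepts electrons from NADH, had a signal of 1174 and ranked 404, 227 and 483. ND-B15, an accessory subunit, had 1126 and ranked 335, 183 and 692. The weakest of these ranks, in any replicate, was 692.

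Of the 7 core subunits of complex I that are encoded in the nucleus, 6 were bound, with signals between 377 (ND-75) and 1174 (ND-51), against 24 of the 27 other members of complex I that are not L paralogs. The core subunit without an IDR summit was ND-49, which helps to form the ubiquinone site and lies on chromosome 4. A summit 109 bp upstream of ND-49 was present below the IDR threshold, with a pooled signal of 79.76 at rank 15932 of 30000. The strongest summits within 500 bp of a TSS in replicates 1, 2 and 3 ranked 14702, 8234 and 25686, but they lay up to 933 bp apart and are not one site. ND-49 thus had summits in all 3 replicate lists but was among the strongest summits of none, taking as many summits per replicate as the IDR list holds.

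Other bound core subunits had lower signals than ND-51. ND-23, which carries iron-sulfur clusters, had a signal of 695.5 and ranked 809, 910 and 2341, so replicate 3 placed it lowest. ND-30 had 383.5 and ranked 2518, 831 and 5514, by summits up to 280 bp apart, so these ranks partly compare different summits. ND-75, the largest subunit of the complex, had 377 and ranked 4615, 3888 and 4098. Among the accessory subunits, ND-42 (1056) and ND-13A (876.6) followed the 3 strongest, and ND-B16.6 was the weakest bound gene of all members, with 214.1 and ranks of 6649, 4565 and 7184. ND-ACP, the acyl carrier protein of mitochondria, had 452.7 and ranked 5301, 1618 and 3609.

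Complex II, the succinate dehydrogenase, also belongs to the TCA cycle. SdhB, the iron-sulfur subunit, had a signal of 1170 with ranks of 386, 821 and 357 in replicates 1, 2 and 3. SdhD, a membrane anchor, had 986.1 with ranks of 376, 1267 and 697, and SdhC, the other anchor, had 507 with ranks of 2105, 1583 and 3615. Replicate 2 placed SdhB and SdhD lower, and SdhC higher, than the other replicates did. SdhA, the flavoprotein, had 434.7, and the assembly factor Sdhaf3 had 431, the lowest of the 5.

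In complex III, the cytochrome c reductase, the strongest gene was the paralog UQCR-6.4L, described with its parent further on. UQCR-14 followed with a signal of 976.3 and ranks of 768, 689 and 706, the closest agreement among the strongest genes of this complex. UQCR-Q had 607.7 and ranks of 1749, 2410 and 2086. The core proteins UQCR-C2 and UQCR-C1 had 589.6 and 508.4.

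Complex IV, the cytochrome c oxidase, had all 8 of its members other than L paralogs bound. COX5B led with a signal of 1192 and ranks of 407, 263 and 425, and COX4 had 979 and ranks of 1162, 728 and 630. COX6B, which faces the intermembrane space, had 677.1 and ranks of 1481, 1743 and 1827. COX5A (552.6) ranked 2263, 2127 and 2248, and COX7B had 380.8. COX8 had 333.3 and was absent within 500 bp from replicate 3, while replicates 1 and 2 ranked it 4193 and 2880.

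In complex V, ATPsynB of the peripheral stalk had the highest signal, 1100, with ranks of 340, 586 and 556. The L paralog ATPsynepsilonL had 728.2 with ranks of 1180, 1363 and 1551, and ATPsynO, the peripheral stalk subunit known as OSCP, had 725 with ranks of 2243, 1833 and 1230. ATPsynE (692), ATPsynF (675.5) and ATPsynD (588.6) lay between, and ATPsynC, the ring that turns in the membrane, had 453.6. ATPsyngamma, the rotor stalk, was the weakest bound gene of complex V with 242.7 and ranks of 6728, 3811 and 6748, by summits up to 250 bp apart.

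**Figure D2:**
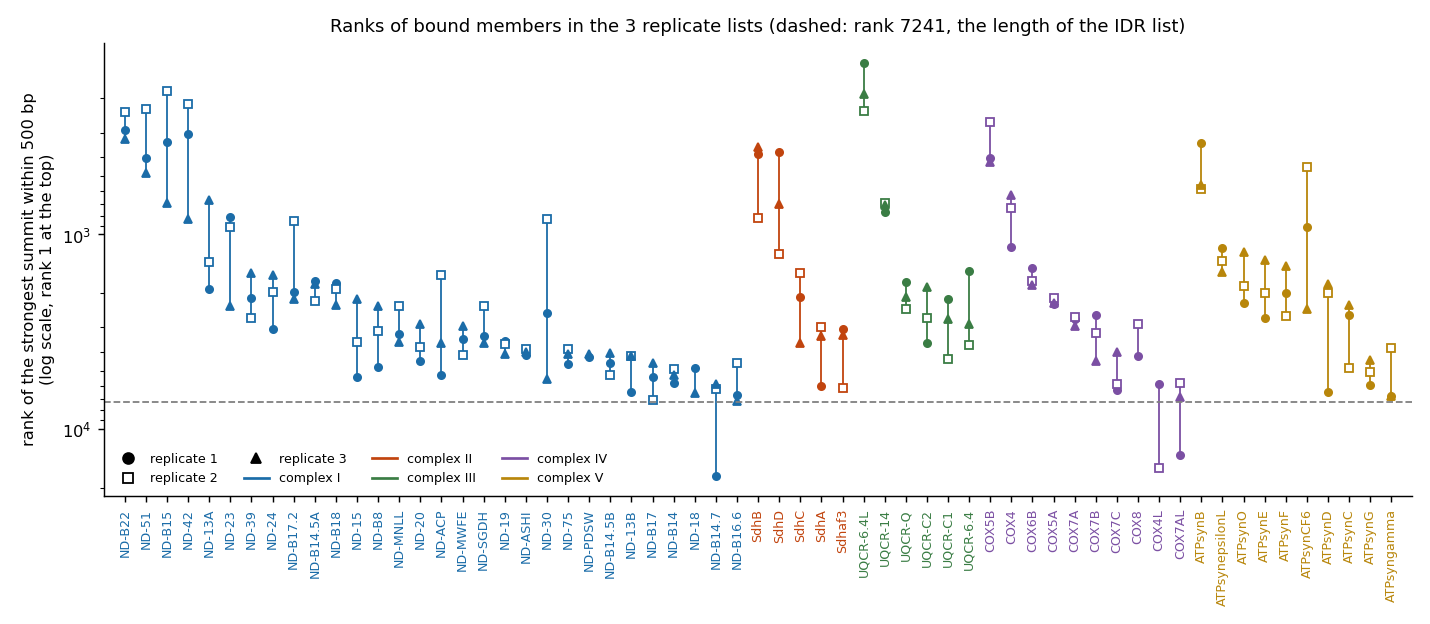
Rank of the strongest summit within 500 bp (vertical axis, log scale, rank 1 at the top) of each of the 61 bound members in the 3 replicate lists, ordered by IDR rank within each complex; circles, squares and triangles are replicates 1, 2 and 3, lines join the replicates of a gene, and the dashed line is the rank equal to the length of the IDR list. UQCR-6.4L stands highest, with ranks of 132, 231 and 190, and ND-B14.7, COX4L and COX7AL each have 1 replicate far below the line.

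Scored in the single replicates, the picture was much the same. Of the 88 members, 66, 67 and 64 had a summit within 500 bp in the whole lists of replicates 1, 2 and 3, against 57.2%, 55.6% and 57.2% of all protein-coding genes. In the pooled list 65 members had one, against 56.1% of all genes. Whole lists of 30000 peaks each reach far below the IDR threshold, so the strongest summits of each replicate, as many as the IDR list holds, were scored as well. These marked 59, 61 and 59 members, against 40.9%, 41.3% and 42.2% of all genes, and 55 members in all 3 replicates, against 35.3% of all genes. The 55 comprise 53 of the 64 members that are not L paralogs and 2 of the 24 L paralogs.

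The ranks of the bound members correlated between replicates about as well as those of other bound genes. Spearman's rho was 0.815 between replicates 1 and 2 (59 members seen in both), 0.796 between 1 and 3 (59) and 0.759 between 2 and 3 (57). Over all bound protein-coding genes it was 0.799, 0.836 and 0.756. These are correlations across genes within a pair of libraries, given as a description. The summits of a member lay a median of 24, 18 and 23 bp apart in these pairs, and 93.2%, 94.9% and 93% lay within 150 bp. A replicate rank is that of the strongest summit within 500 bp in that replicate. In 9 members seen in all 3 replicates (6 bound and 3 unbound) these summits lay over 150 bp apart, so their ranks do not all describe one site.

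The bound members that the replicates did not share were few. ND-18, a complex I subunit, and ND-PDSW, an accessory subunit of complex I, had no summit within 500 bp in replicate 2. COX8 and the paralog COX4L, both of complex IV, had none in replicate 3. ND-18 ranked 4867 and 6527, and ND-PDSW 4252 and 4090, in replicates 1 and 3. ND-B14.7 was present in all 3 lists but ranked 17348 in replicate 1, against 6204 and 5854 in replicates 2 and 3. The paralog COX7AL likewise ranked 13574 in replicate 1, against 5799 and 6870. Each of these genes had an IDR signal under the members' median. It was 266.2 for ND-18, 356.8 for ND-PDSW, 333.3 for COX8, 267.1 for COX4L, 234.8 for ND-B14.7 and 233.2 for COX7AL.

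Paralogs were also set against their own parents. A paralog here is a member whose symbol is that of another member with L, or L and a digit, added; parentage rests on the symbol alone. ND-MNLL ends in L but is no paralog by this rule. There were 20 such paralogs with 18 parents, and 4 more L symbols have a parent outside the symbol rule. Of the 20 paralogs 3 were bound (15%, 5.24 to 36), against 15 of the 18 parents (83.3%, 60.8 to 94.2) and 42 of the 46 members that are neither. The 3 bound paralogs rest partly on single replicates: in summits common to the strongest of 2 replicates, 2 were bound without replicate 1 and 1 without replicate 2 or replicate 3. In 14 of 20 pairs the parent was bound and the paralog was not, in 3 pairs both were bound, in 3 pairs neither was, and in no pair was the paralog bound alone. A parent with 2 paralogs counts in 2 of these pairs.

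The lists that reach below the IDR threshold were scored in the same way. No summit of the IDR, pooled or replicate lists lay within 500 bp of a TSS for 15 of the 20 paralogs, against 0 of the 18 parents and 32.4% of all protein-coding genes. Counting the 4 further L symbols, 17 of 24 L paralogs had no summit in any of the 5 lists, while each of the 64 other members had at least 1. A bound gene has a summit in these lists by definition, so only the unbound genes add to the IDR call. Of the unbound genes, 15 of 17 paralogs and 0 of 3 parents had no summit in any list. Over all protein-coding genes this held for 4516 of 8075 unbound ones. The nearest IDR summit lay a median of 9101 bp (129 to 35950) from a paralog, against 60 bp (4 to 396778) from a parent and 1822 bp from a protein-coding gene in general.

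**Figure D3:**
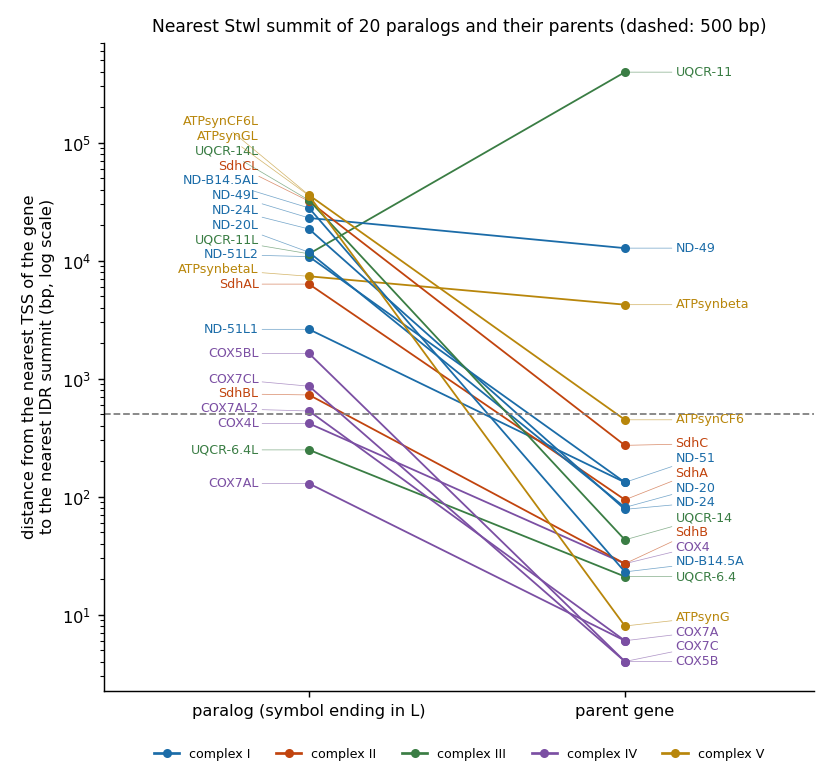
Distance from a TSS of the gene to the nearest IDR summit (vertical axis, bp, log scale) for the 20 paralogs on the left and their parents on the right; each line joins a paralog to its parent, colours give the complex, and the dashed line marks 500 bp. Of the paralogs, 3 lie below 500 bp, while 15 of the 18 parents do, and UQCR-11 is the farthest at 396778 bp.

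In complex I all 6 paralogs were unbound. ND-51L1 and ND-51L2 had their nearest IDR summit 2619 and 10826 bp away, against 132 bp for ND-51. ND-24L and ND-20L had theirs at 18558 and 11787 bp, against 78 bp for ND-24 (signal 665.2) and 81 bp for ND-20 (457.4), both iron-sulfur core subunits. ND-B14.5AL had its nearest at 27981 bp, against 23 bp for the accessory subunit ND-B14.5A (634.2). ND-49L, at 23025 bp, is the paralog of an unbound parent. No summit of any list lay within 500 bp of a TSS of these 6 paralogs.

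The contrast can be read beside the sequences. Shown for 2 such pairs are the 150 bases just upstream of the most upstream TSS, 5′ to 3′ on the strand of the gene, from the RefSeq Release 6 assembly; capitals mark TATCGATA, the DNA replication-related element (DRE) bound by Dref, or the E-box CAGCTG, wherever they occur. ND-B14.5AL lies at chr3L:22606219-22606368 (plus strand), ND-B14.5A at chrX:2172376-2172525 (plus strand), ND-20L at chr3R:29515567-29515716 (plus strand) and ND-20 at chrX:15986809-15986958 (minus strand).
ND-B14.5AL: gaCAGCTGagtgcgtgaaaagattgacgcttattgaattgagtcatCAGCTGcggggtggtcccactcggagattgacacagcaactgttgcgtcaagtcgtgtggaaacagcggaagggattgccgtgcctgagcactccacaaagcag
ND-B14.5A: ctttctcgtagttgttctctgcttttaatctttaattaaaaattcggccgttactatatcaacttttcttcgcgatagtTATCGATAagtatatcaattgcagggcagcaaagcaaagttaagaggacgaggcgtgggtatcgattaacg
ND-20L: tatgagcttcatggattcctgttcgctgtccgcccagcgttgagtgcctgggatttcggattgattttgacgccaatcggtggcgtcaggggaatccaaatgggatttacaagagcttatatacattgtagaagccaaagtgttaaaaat
ND-20: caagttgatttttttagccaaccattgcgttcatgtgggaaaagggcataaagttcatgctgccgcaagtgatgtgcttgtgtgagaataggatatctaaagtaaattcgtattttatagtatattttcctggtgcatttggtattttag
Both parents had their summit inside the printed stretch. The unbound paralog ND-B14.5AL holds E-boxes and the bound parent ND-20 holds neither motif, so in these 2 pairs a motif match did not always go with a bound call.

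In complex II the 3 paralogs were unbound. SdhAL and SdhCL had their nearest IDR summit 6332 and 31934 bp away, against 94 bp for SdhA and 272 bp for SdhC. SdhBL came closer, at 728 bp, against 27 bp for SdhB, and a single replicate held a weak summit within 500 bp of it, at rank 24541 in replicate 3. SdhCL and SdhC lie on the same arm, 93181 bp apart, and SdhC shares its promoter region with Tctp.

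In complex III UQCR-14L and UQCR-11L were unbound, with nearest IDR summits at 32547 and 11440 bp, against 43 bp for UQCR-14 and 396778 bp for UQCR-11. UQCR-6.4L was the exception in strength as well as in call. It ranked 132, 231 and 190 in replicates 1, 2 and 3 and had an IDR signal of 1535 at rank 178, the highest of all 88 members. Its parent UQCR-6.4 had 494.9 at rank 2841 and ranked 1538, 3675 and 2892. The summit of UQCR-6.4L lay 249 bp downstream of its TSS, in an intron of UQCR-6.4L and also in an intron of Mipp1, within which the paralog sits. No other protein-coding gene has a TSS within 500 bp of it. The 81 bases around it, chr3L:16566959-16567039 on the plus strand, hold no match to a DRE, to GGTCACAC (motif 1, the site of the factor M1BP) or to CAGCTG.
UQCR-6.4L: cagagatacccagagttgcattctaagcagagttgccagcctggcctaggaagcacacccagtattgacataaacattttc

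In complex IV COX4L and COX7AL were bound, both weakly. COX4L had an IDR signal of 267.1 at rank 5586, from a summit 417 bp downstream of its TSS inside its coding exon. It ranked 5896 in replicate 1 and 15783 in replicate 2 and was absent from replicate 3, against ranks of 1162, 728 and 630 for its parent COX4. COX7AL had 233.2 at rank 6257 and ranked 13574, 5799 and 6870, against 2706, 2647 and 2958 for its parent COX7A (501.2). COX4L was the only bound member whose summit lay in a coding exon.

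Some unbound paralogs of complex IV had summits nearby. COX7AL2 fell just outside the limit, with an IDR summit of signal 455.5 at 532 bp; within 500 bp it had a pooled summit of 103.3 and, by summits up to 332 bp apart, ranks of 26167, 6744 and 13566. No other unbound member had an IDR summit within 50 bp beyond the limit, and no bound member had its nearest summit within 50 bp inside it, the closest being ATPsynCF6 at 448 bp. COX5BL and COX7CL sit in tandem with their parents, 123 bp downstream of COX5B and 282 bp from COX7C as genes. Their nearest IDR summits were 1635 and 863 bp away, against 4 bp for both parents. COX7AL lies 2626 bp from COX7A on the same arm. In 15 of the 20 pairs the paralog and the parent are on different arms.

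In complex V ATPsynCF6L, ATPsynGL and ATPsynbetaL were unbound, with nearest IDR summits at 35950, 35592 and 7376 bp. Their parents were at 448 bp (ATPsynCF6, signal 622), 8 bp (ATPsynG, 359.9) and 4239 bp (ATPsynbeta, unbound). The summit that made ATPsynCF6 bound lay 51 bp from the TSS of its divergent neighbour Sec13. ATPsynCF6 ranked 910, 448 and 2409 in replicates 1, 2 and 3, by summits up to 170 bp apart, so these ranks partly compare different summits.

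Of the 4 L symbols whose parent has another kind of name, ATPsynepsilonL was bound and COX6AL, COX6AL2 and COX6CL were not. The parents are sun (458.4), the epsilon subunit of complex V, levy (447.7), the COX6A subunit, and cype (339.2), the COX6C subunit, and all 3 were bound. The summit that made ATPsynepsilonL bound lay 283 bp upstream of it and 90 bp from gammaSnap2. COX6AL, COX6AL2 and COX6CL had their nearest IDR summits at 9275, 12581 and 13130 bp, against 23 bp for levy and 13 bp for cype.

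Paralogs and parents differ in gene structure and setting as well. Of the 20 paralogs 8 consist of 1 exon block, against 1 of the 18 parents, and 17 have a single annotated TSS, against 7 of the parents. A gene with more TSSs offers more places to be scored: 54.7% of all genes with 2 or more TSSs were bound, against 37.5% of those with 1. Of the 17 paralogs with 1 TSS 3 were bound, against 7 of the 7 parents with 1 TSS. All 4 parents on X (ND-20, ND-24, ND-B14.5A and UQCR-14) were bound, and their 4 paralogs, all on autosomes, were not. That all parents of an arm were bound is not particular to X: it also held on 2L (4 of 4), 2R (4 of 4) and 3R (3 of 3). Unlike on X, some parents on these arms had a bound paralog: COX4 on 2L, UQCR-6.4 on 2R and COX7A on 3R. The 1 parent on 3L and the 2 on chromosome 4 were unbound. Of all protein-coding genes on X 44.1% were bound.

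Promoter layout also moved with binding. A head-to-head gene has a divergent TSS of another protein-coding gene up to 1000 bp away, an isolated gene has no TSS of another protein-coding gene within 2000 bp, and the rest have another TSS close by. Over all protein-coding genes, 70.9% of head-to-head, 27.4% of other close and 24.7% of isolated genes were bound. Members other than L paralogs were head-to-head in 62.5% of cases and isolated in 15.6%, against 36.2% and 39.2% of all genes, while 16.7% of the L paralogs were head-to-head and 54.2% were isolated.

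Within each layout the members that are not L paralogs were bound more often than all genes of that layout. Of them, 37 of 40 head-to-head (92.5%), 12 of 14 other close (85.7%) and 8 of 10 isolated genes (80%) were bound. L paralogs were bound in 2 of 4, 1 of 7 (14.3%) and 1 of 13 cases (7.69%). Among isolated genes with 1 TSS, of which 21% were bound over the genome, 1 of 12 L paralogs was bound, against 6 of 7 other members. Isolated paralogs with a parent among the members were bound in 1 of 11 cases, against 5 of 6 isolated parents. The part that layout has in the difference between paralogs and parents was not tested beyond these counts.

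**Figure D4:**
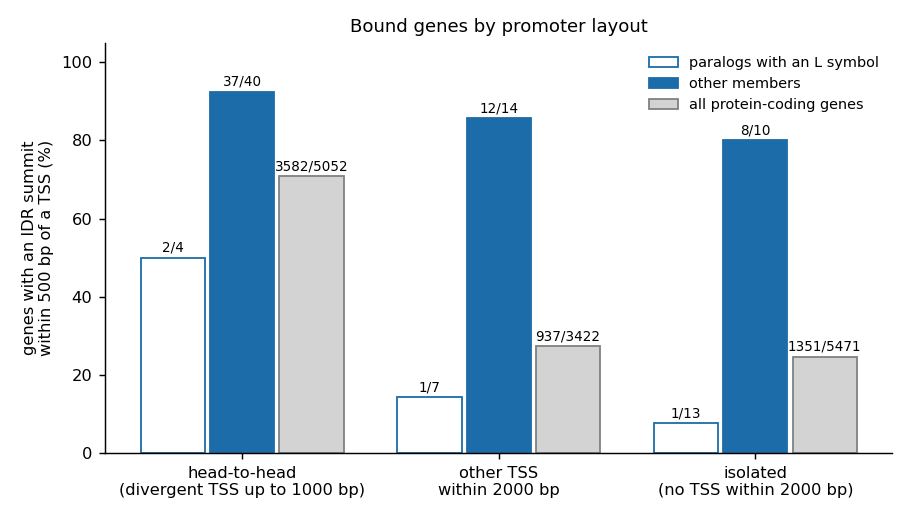
Share of genes called bound (vertical axis, percent) by promoter layout, for L paralogs (open bars), other members (filled bars) and all protein-coding genes (grey bars), with bound and total counts above the bars. Other members lie at 80% to 92.5% in all 3 layouts, whereas all genes lie at 70.9% when head-to-head and 24.7% to 27.4% otherwise.

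Each bound member had a summit of its own: the 61 strongest summits are 61 distinct sites. Many were shared with neighbours of other families. The summits of 38 bound members (62.3%) also lay within 500 bp of another protein-coding gene, against 56.6% of all bound genes, and the own TSS of the member was the nearest one for 46 (75.4%), against 72.5%. For the other 15 the summit was nearer to another gene, as for ND-51 (100 bp from CG13994), COX5B (86 bp from IFT52), ND-MWFE (1 bp from TppII) and SdhC (126 bp from Tctp). Which gene such a summit acts on was not tested.

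Some head-to-head partners also serve mitochondria; these were picked out after the values were seen. ND-ASHI and Fum1, the fumarase of the TCA cycle, have TSSs 164 bp apart and share a summit of signal 385.3. ND-42 and Cchl, which attaches heme to cytochrome c, are 229 bp apart and share one of signal 1056, 26 bp from Cchl. ATPsynD and mRpL55, of the mitochondrial ribosome, are 95 bp apart and share one of signal 588.6. ND-B16.6 and kdn, the citrate synthase, are 228 bp apart and have separate strongest summits, of signal 214.1 and 483.6.

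Summits sat close to the TSS. Of the 61 strongest summits 49 (80.3%) were upstream of the TSS, against 90.2% over all bound genes, with a median position of -39 bp, against -72 bp. Within 100 bp to either side lay 42 (68.9%), against 59.9% of all bound genes. The 3 members with summits more than 200 bp downstream were UQCR-6.4L (249 bp), COX7C (315 bp) and COX4L (417 bp).

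**Figure D5:**
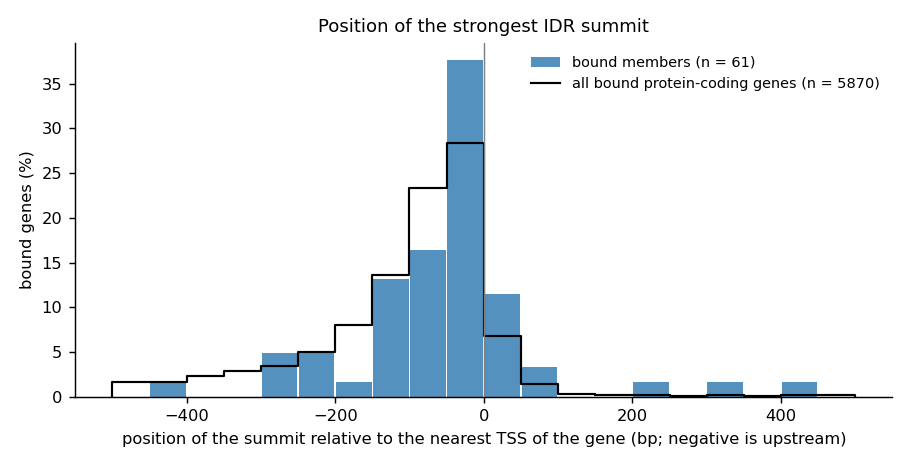
Position of the strongest IDR summit relative to the TSS of the gene (horizontal axis, bp, negative upstream) for the 61 bound members (bars) and all 5870 bound protein-coding genes (line), as a percentage of each (vertical axis). Both peak in the 50 bp before the TSS, and the median is -39 bp for members and -72 bp for all bound genes.

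Some promoters held more than 1 site. Of the 61 bound members 11 (18%) had 2 IDR summits within 500 bp, against 13.8% of all bound genes with 2 or more. In COX5B the stronger summit (1192) lay 212 bp upstream, 86 bp from IFT52, and a second one (479) lay 4 bp upstream of its own TSS. ND-42 was alike, with 1056 at 203 bp upstream, near Cchl, and 440.7 at 2 bp downstream. COX7C had 352.5 at 315 bp downstream, near the gene oys, and 244.2 at 4 bp downstream. In these 3 genes the weaker summit was the nearer to the gene's own TSS, while in the other 8 of the 11 the stronger one was. In ND-39, one of the 8, the stronger (670.9) lay 31 bp upstream and the weaker (407.2) 343 bp upstream.

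The 7 unbound members that are not L paralogs were ND-49, ND-AGGG, ND-B12 and ND-MLRQ of complex I, UQCR-11 of complex III, and ATPsynbeta and ATPsyndelta of complex V. All 7 had at least 1 summit within 500 bp in some list. ATPsynbeta, the catalytic subunit of the ATP synthase, had a pooled summit of signal 139.7 at rank 9302, 497 bp upstream, and was listed at ranks 4247 and 13244 in replicates 2 and 3. ATPsyndelta, a rotor stalk subunit, had one of 111.9 at rank 11264, 53 bp upstream. Its strongest summits in replicates 1, 2 and 3 ranked 17756, 5464 and 10831 and lay up to 467 bp apart, so they are not one site. Both were among these strongest summits in replicate 2 and not in the other replicates. ND-B12, an accessory subunit, had a single summit, at rank 17569 in replicate 1.

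Position along the chromosomes sets several of these apart. ND-AGGG, ND-MLRQ and UQCR-11 lie toward the centromere of 3L, at chr3L:24976254-24977118, chr3L:23339326-23345936 and chr3L:25120709-25126171, and their nearest IDR summits were 252, 88.6 and 397 kb away. Genes are sparse there: within 100 kb of these TSSs lie 1, 2 and 2 other protein-coding genes, and 0 of them were bound. ATPsynbeta and ND-49 are the 2 members on chromosome 4, where 28.8% of the protein-coding genes were bound, and both are head-to-head genes. Around ATPsyndelta on X 3 of 10 neighbours within 100 kb were bound, and around ND-B12 on 2R 18 of 42.

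The DNA at the bound members was searched for exact matches on both strands to known promoter motifs, as a description. The promoter window ran from 250 bases before to 50 after the most upstream TSS of each gene. A bound call could come from another TSS, so the window need not hold the summit. Of the 64 members other than L paralogs 32 have 2 or more TSSs, against 3 of the 24 L paralogs. In this window a DRE (TATCGATA) stood in 9 of the 64 (14.1%), in 0 of 24 L paralogs and in 9.36% of all protein-coding promoters. Motif 1 (GGTCACAC) stood in 15 (23.4%), in 1 L paralog and in 7.7% of all promoters. The E-box CAGCTG stood in 19 (29.7%), in 2 L paralogs and in 17.7%. Among all bound protein-coding genes these shares were 19.2%, 16.6% and 23.1%. DRE or motif 1 stood in 24 of the 61 bound members (39.3%), against 0 of the 27 unbound members, and in 33.5% of all bound genes, against 16.1% of all promoters. With CAGCTG added, 55.7% of the bound members held a match, against 49.7% of all bound genes and 30.5% of all promoters. Of the unbound members 7.41% held one, and 20 of the 27 unbound members are L paralogs.

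Within 100 bp of the summits the same motifs recurred. A DRE stood at 11 of the 61 summits of bound members (18%), against 17.6% of the summits of all bound genes, motif 1 at 15 (24.6%), against 15%, and CAGCTG at 20 (32.8%), against 17.9%. In windows of the same width 1000 bp to either side, DRE and motif 1 were found at 0 of the 61 members, and CAGCTG at 7 and 10. Over the summits of all bound genes, these flanks held DRE or motif 1 in 0.929% and 1.17%, and CAGCTG in 11.6% and 11.7%. DRE or motif 1 stood at 24 of the 61 summits (39.3%), against 30.8% of the summits of all bound genes. Where a DRE was present, its centre lay a median of 40 bp from the summit.

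Motifs known from mammals for respiratory chain genes were not found by these letters. The Ets site CCGGAAG, an NRF1-type site GCATGCGC and an ERR-type site TCAAGGTCA matched 0 of the 88 promoter windows, against 1.09%, 1.05% and 0.122% of all promoters. With shares this low among all promoters, counts of 0 in 88 windows carry little information. The GAGA motif GAGAGAG stood in 0 of the 64 members other than L paralogs, in 1 L paralog and in 5.87% of all promoters. The E-box CACGTG stood in 2 of the 64, in 2 L paralogs and in 4.2% of all promoters. TATAAA, at any position of the window, stood in 40 of the 64 (62.5%), in 9 L paralogs (37.5%) and in 45.8% of all promoters.

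The following 2 bound genes that carry DRE or motif 1 are shown in the same way, as the 150 bases before the most upstream TSS, with TATCGATA and GGTCACAC in capitals on the strand of the gene. COX4, at chr2L:19958563-19958712 on the plus strand, holds one of each, and its summit lies 27 bp upstream of a TSS. ND-B17, an accessory subunit of complex I at chr2L:15751079-15751228 on the minus strand, holds motif 1 close to the TSS, and its summit (signal 328.5) lies 46 bp upstream.
COX4: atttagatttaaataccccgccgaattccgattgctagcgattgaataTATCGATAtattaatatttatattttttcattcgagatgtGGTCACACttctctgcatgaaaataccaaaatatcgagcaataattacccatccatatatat
ND-B17: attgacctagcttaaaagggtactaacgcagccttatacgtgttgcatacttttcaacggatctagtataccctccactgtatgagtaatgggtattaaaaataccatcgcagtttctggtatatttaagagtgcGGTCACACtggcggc
ND-B22, ND-51 and ATPsynB, with signals of 1320, 1174 and 1100, hold neither of these motifs in the promoter window or within 100 bp of the summit. ND-B22 and ND-51 do hold CAGCTG within 100 bp of the summit. Other members of similar signal hold DRE or motif 1. COX5B (1192) holds motif 1 in the promoter window, and SdhB (1170) holds it there and at the summit. ND-B15 (1126) holds a DRE in both windows.

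Other genes of the pathway were taken from lists made by function. Of each list 80% or more was bound, against 42.1% of all protein-coding genes. The lists are short and their Wilson intervals wide: 49 to 94.3 for subunits and carriers, and 70.1 to 100 for assembly factors. They were 74.1 to 100 for the TCA cycle and 64.6 to 98.5 for regulators. Many of these genes are head-to-head, a layout in which 70.9% of all protein-coding genes were bound. The lists were not compared within a layout. Of 10 subunits and electron carriers outside the symbol rule 8 were bound, with the highest signals at ox (1517) and the Rieske protein RFeSP (1069), both of complex III, and blw (823), the alpha subunit of complex V. Cyt-c1, the cytochrome of complex III, and knon, a testis relative of a complex V subunit, were unbound. Their nearest IDR summits lay at 744 and 637 bp. Cyt-c1 still ranked 5466, 15608 and 7152 in the replicates, and knon 14918 and 17290 in replicates 1 and 2.

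Assembly factors were bound in 9 of 9 cases, led by Ttc19 (755), CIA30 (533.4) and Ccdc56 (462.9), and Cox15 could not be matched by symbol. Enzymes of the TCA cycle were bound in 11 of 11 cases, led by Scsalpha1 (1525), Ogdh (1085) and Idh3g (1008). Of 12 regulators of mitochondrial genes and of mitochondrial DNA 11 were bound, led by ewg (2315), the fly relative of NRF1, ERR (1638) and Ets97D (668.4), and PolG1, the mitochondrial DNA polymerase, was not. Ccdc56 and mtTFB1 share a single summit. For scale, 62 of 73 mitochondrial (84.9%) and 75 of 92 cytoplasmic ribosomal protein genes (81.5%) were bound, shares whose Wilson intervals overlap that of the 64 members other than L paralogs.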

How the data were processed

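The signal values (one per peak) and the −log10 of the q-value are those of the authors' deposited peak lists, with coordinates on dm6 per the labels and counted from 1. Per the text files deposited with the lists, replicate lists and a pooled list were made against a control library, and the IDR list was derived from them. The aligner and the peak caller were not given in the sources used here, nor was the cut-off of the IDR. The IDR list's 7241 peaks are the strongest of the pooled list, and the other lists hold 30000 peaks each. Signal served to rank and describe peaks within a list, and the −log10 values were not used for any result. Read depth is unknown.

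Genes and TSSs came from Ensembl BDGP6.54 (release 115) on the 6 main arms, and sequence from RefSeq Release 6, the same assembly; peak ends lay within its arm lengths. Every member was scored in all 5 lists, and no filter removed any. The scoring was checked on simulated data. Python 3.11.15, NumPy 2.4.6, SciPy 1.17.1 and matplotlib 3.10.9 were used. No test was made, since there is 1 group. Members, lists and motifs were chosen with earlier results of these data known. The genes named are the 3 strongest bound of each complex, paralogs with parents, unbound members, those near the 500 bp limit or not shared by the replicates, and the strongest and unbound of each other list; other genes appear because their values, once seen, stood out.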

Additional observations from a re-analysis of the deposited data

How the results depend on the processing

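Of 91 alternative values, 75 stayed within 1.5 times the main count. Restricting to isolated genes, chosen after seeing the data, gave 9 of 23 members bound (39.1%, against 24.7% of all isolated genes; complexes I to V: 3, 1, 2, 1 and 2), with 1 paralog and 5 parents. The stronger part of the IDR list, down to its median signal, gave 18 bound in complex I (45%), 5 in complex IV (31.2%) and 1 paralog (5%), against 27.7% of all genes, so complex IV came close to the share of all genes. Requiring the peak interval to cover the TSS gave 3 in complex II (37.5%), close to the 33.9% of all genes. Both counts include L paralogs. Paralogs bound were 6 within 1000 bp and 1 in the consensus of the 3 replicates; leaving out each replicate in turn gave 1 to 2, with COX7AL and UQCR-6.4L bound without replicate 1 and UQCR-6.4L alone without replicate 2 or 3. COX4L was lost in all 3 of these and COX7AL in 2; parents bound stayed at 15 in each. In each of these settings the paralogs' share stayed under that of all genes. Peak lists without depth limit what a missing summit means: not detected at these thresholds.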
